A study of Rattus norvegicus with 53 samples.

Results

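Serum of 40-day-old (d40) diabetes-prone DRlyp/lyp BB rats that had received human interleukin-1 receptor antagonist (hIL-1RA) was compared with autologous serum by its effect on gene expression in healthy blood cells. The 12 arrays were chosen by their titles, namely the 6 replicates with serum of IL-1RA-treated rats and autologous replicates 1 to 6, of 53 arrays in the series. In every culture the responding cells were peripheral blood mononuclear cells (PBMCs), the lymphocytes and monocytes of blood, from healthy male Brown Norway (BN) rats about 180 days old, kept for 6 h at 37°C with 20% plasma or serum. The serum donors of the first group were DRlyp/lyp rats given 350 ug/kg/day of hIL-1RA from day 30 for 10 days, and the autologous serum came from the BN rats that also gave the cells. Strain, lyp genotype, age and treatment of the serum donor therefore all differ between these groups and cannot be told apart. Serum of 6 d40 DRlyp/lyp rats given PBS and 3 allogeneic BN sera (replicates 1 to 3) served as further references. The allogeneic sera came from other BN rats about 180 days old, so strain, lyp genotype, age and treatment of the donor differ there too. Sera of 60-day-old (d60) DRlyp/lyp rats, with and without IL-1RA added in culture, and of d60 DR+/+ rats (the related BB line without lymphopenia) were set beside them. The sample labels describe the IL-1RA arrays as serum with hIL-1RA added, while the study design describes treated rats; the design was followed, and all IL-1RA values below depend on that choice. The design gives 6 rats for each d40 treatment, but the labels tie no array to a serum donor, cell donor or culture, so p-values measure only the spread between these samples.

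Interleukin-1 (IL-1) is an early inflammatory cytokine made mainly by monocytes, and IL-1RA, the product of Il1rn, occupies the IL-1 receptor without starting a signal. IL-1 acts through the receptor Il1r1 on NF-kappaB and induces further cytokines, while Il1r2 is a decoy receptor that binds IL-1 and does not signal. DRlyp/lyp rats lack most peripheral T cells because of a defect in Gimap5 and develop autoimmune diabetes, and in this design their serum is read out by the transcripts it induces in cells of a healthy rat.

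Actin signal at the 3′ end minus that at the 5′ end (log2), a measure of RNA degradation, averaged 3.90 ± 0.338 (SD, n = 6) with IL-1RA rat serum, 3.91 ± 0.395 (SD, n = 6) with autologous serum and 3.52 ± 0.275 (SD, n = 6) with PBS rat serum, and was 3.60, 0.762 and 2.81 in the 3 allogeneic arrays. It was thus close in the IL-1RA and autologous groups and lower on average with PBS rat and allogeneic serum. All of these arrays lay in 1 of 2 clusters into which the 53 arrays fall; the labels describe neither the cluster nor any array run. T-cell markers were all measured (10 of 10, mean level 8.82 to 9.23 with IL-1RA rat serum and 8.64 to 9.21 with autologous serum), as were 5 of 8 B-cell markers (8.03 to 8.95 and 8.44 to 8.81) and 9 of 11 monocyte markers (5.78 to 7.40 and 5.93 to 7.15), of which Cd163 lay low at 2.92 to 3.49 in both groups. Markers of other blood cells were present too, with 8 of 10 platelet markers at 9.95 to 10.5 and 9.68 to 10.9, 6 of 9 erythroid markers at 8.13 to 10.3 and 8.10 to 9.93, and 6 of 9 neutrophil markers at 4.25 to 6.62 and 4.02 to 6.32.

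Arrays with the same replicate number deviated from their group means in the same direction. The correlation of these deviations over probe sets was 0.778, 0.411, 0.129, 0.363, 0.347 and 0.299 for replicates 1 to 6, against a mean of -0.0590 between different numbers. Deviations from a group mean cancel out within the group, which pulls the different-number mean down when same-number values are positive. The contrast of these means is therefore no separate evidence of pairing. Single different-number values reached 0.426, for IL-1RA replicate 6 with autologous replicate 3. With every same-number value above the minimum of 0.1, the numbers were taken to pair the samples, and values with the replicate number as a block are given beside the unpaired ones. Only 3 of the 6 IL-1RA arrays correlated best with the autologous array of their own number, and the pair with the number 3 was the weakest.

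**Figure D1:**
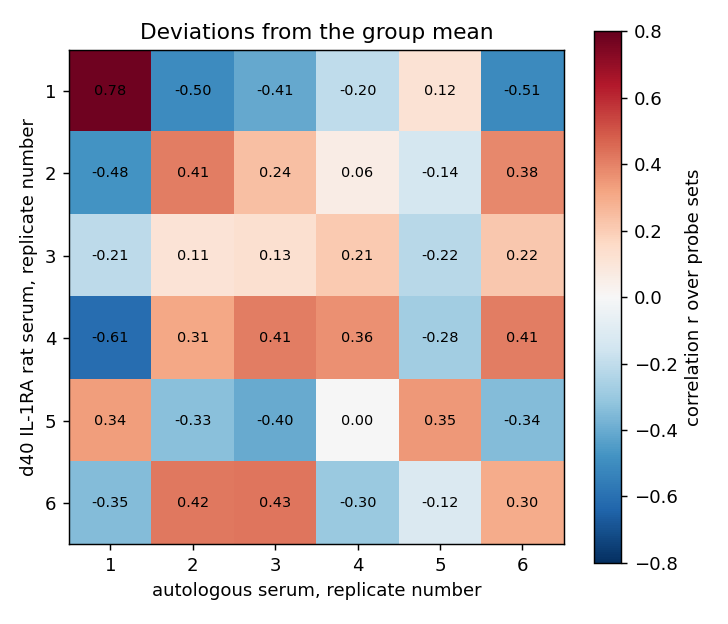
Correlation r, over all probe sets, of the deviation of each array with d40 IL-1RA rat serum from its group mean (rows, replicate number) with that of each autologous array (columns, replicate number). The diagonal holds the same-number pairs, from 0.129 for replicate 3 to 0.778 for replicate 1. The mean of all other cells is -0.0590, which centring on the group means pulls down.

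Cells in serum of IL-1RA-treated rats had more transcript of Vcan (versican, a chondroitin sulphate proteoglycan of the extracellular matrix that blood monocytes express), Olfm1 (olfactomedin 1, a secreted glycoprotein best known from the nervous system) and Fam111a (a serine protease linked to DNA replication). All 3 genes were about 2-fold higher and were higher in each of the 6 pairs, but they did not pass the test unpaired and passed with the replicate number as a block. Among the other fits without that block, Fam111a was called with array weights (adjusted p = 0.00554) and without IL-1RA replicate 5 (0.0467), and Olfm1 with all 53 arrays in the fit (0.0329). That last fit also put autologous replicates 7 to 10, which lie in the other array cluster, into the reference. Olfm1 averaged 4.97 in those replicates and 6.66 in autologous replicates 1 to 6, so its call there is no like comparison. With the replicate number as a random block limma called 0 (969 at an unadjusted p under 0.05, smallest adjusted p 0.0933). The unpaired limma fit called 0 of 31042 probe sets in either direction at an adjusted p under 0.05 (0%), with 424 (1.37%) at an unadjusted p under 0.05, and every adjusted p rounded to 1. With the block, limma called 4 probe sets, all of them higher (0.0129% of those tested), namely 2 of Vcan and 1 each of Olfm1 and Fam111a, and 913 (2.94%) had an unadjusted p under 0.05. The typical difference was small: the median log2 difference was 0.00221, its median size 0.0643, and 2 probe sets differed by 1 or more.

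Versican transcripts gave the smallest p of the paired comparison. At probe set 1371232_a_at the log2 level ran from 5.49 to 6.85 with a median of 6.15 in IL-1RA rat serum, and from 4.57 to 5.61 with a median of 5.09 in autologous serum. The ranges overlap by a narrow margin, with the lowest IL-1RA array below the 2 highest autologous arrays. Within pairs the log2 differences were 1.10, 0.926, 1.49, 1.06, 0.957 and 0.906, so each culture in IL-1RA rat serum lay above the autologous culture of its number. The mean difference was 1.07 (2.11-fold, SE 0.109, 95% interval 0.839 to 1.31, adjusted p = 0.00601 with the block; SE 0.261, adjusted p = 1 unpaired).

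The other Vcan probe sets differed in size and in whether they passed. Probe set 1388142_at was higher by log2 0.92 (SE 0.113, adjusted p = 0.0174 with the block), with 6.33 as the median of IL-1RA arrays (5.58 to 7.36) and 5.47 as that of autologous arrays (4.47 to 6.46), and 6 of 6 pairs higher. Probe set 1388054_a_at has the highest mean over the 53 arrays and is the representative of the gene in the lists. It differed by 0.89 (SE 0.137, 6 of 6 pairs higher) and missed the threshold at adjusted p = 0.099 with the block. Of 9 block alternatives 1 called it, the one with the actin covariate (limma, adjusted p = 0.0111). At 1388265_x_at the difference was 0.80 (adjusted p = 0.099, 6 of 6 pairs). The fifth, 1371233_at, averaged only 3.01 and differed by 0.07, with 3 of 6 pairs higher. Leaving out each pair in turn kept the call of 1371232_a_at in 6 of 6 fits (adjusted p from 0.0049 to 0.0439), whereas 1388142_at was called in 2 of 6 (adjusted p up to 0.147).

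Olfm1 was measured at 7.04 to 8.04 (median 7.78) with IL-1RA rat serum and at 5.98 to 7.20 (median 6.81) with autologous serum at probe set 1369008_a_at. Only the lowest IL-1RA array, replicate 4, lay inside the autologous range, and that range's top was a single array, replicate 6. Pair differences were 0.933, 0.477, 1.52, 1.07, 1.12 and 0.846. Their mean of log2 0.99 (1.99-fold, SE 0.132, adjusted p = 0.0298 with the block) passed in 2 of 6 fits without a pair, with adjusted p up to 0.266. The second Olfm1 probe set, 1387927_a_at, differed by 0.39 with 4 of 6 pairs higher and did not pass (adjusted p = 0.999).

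Fam111a separated the groups completely at a low level. Its values were 3.63 to 5.24 (median 4.37) with IL-1RA rat serum and 3.20 to 3.61 (median 3.36) with autologous serum, with no overlap; such a gap was found for 15 probe sets in the higher direction (0.0483% of those tested) and for 5 in the lower (0.0161%). The values of both groups all lay below the array medians (5.31 to 5.4), where RMA compresses differences. Pair differences of 1.62, 0.834, 1.04, 1.07, 0.425 and 1.10 gave a mean of log2 1.02 (2.02-fold, SE 0.118, adjusted p = 0.0146 with the block), called in 3 of 6 fits without a pair (adjusted p up to 0.0954).

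**Figure D2:**
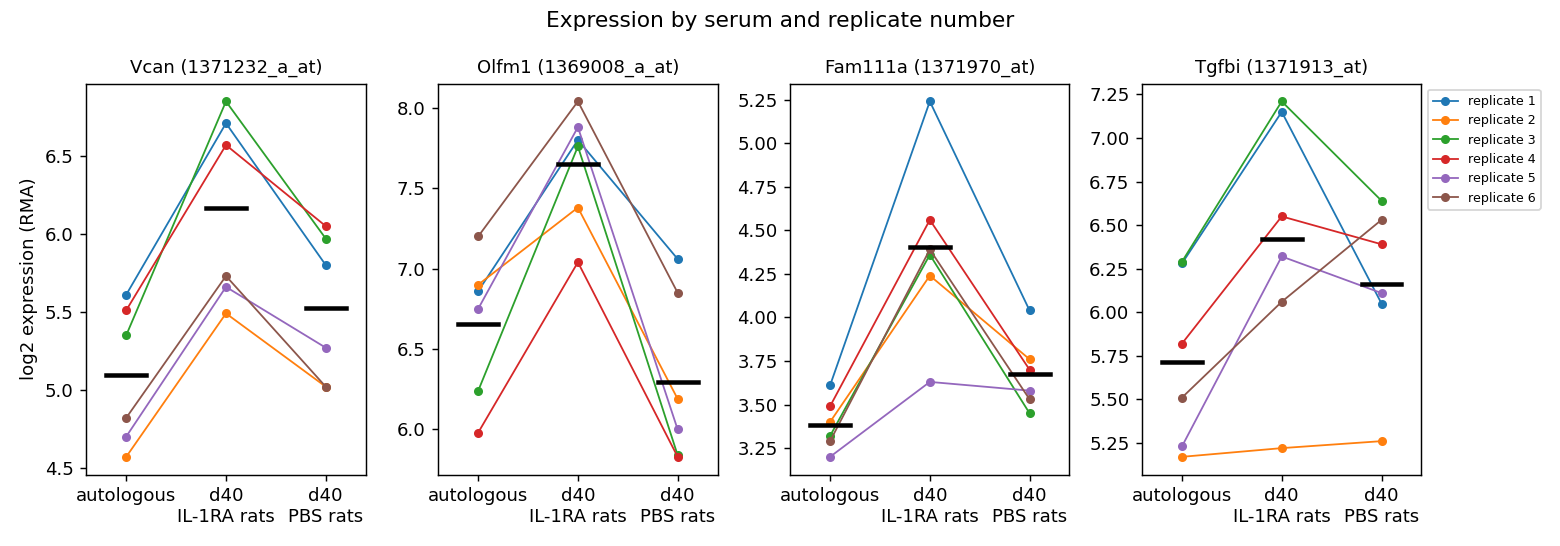
Log2 expression of Vcan, Olfm1, Fam111a and Tgfbi in autologous, d40 IL-1RA rat and d40 PBS rat serum; each line joins the 3 arrays of a replicate number and black bars are means of 6. In the first 3 panels all 6 lines rise from autologous to IL-1RA rat serum and fall again to PBS rat serum; Tgfbi is higher than autologous in 6 of 6 pairs but higher than PBS in 4.

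The promoters of the 3 called genes are shown to set side by side what their sequences share, taken from RefSeq on rat assembly GRCr8 as the 250 bases before and 50 after each annotated start, on the gene's own strand. Capitals mark GC boxes (GGGCGG on either strand) and, in Vcan, also the NF-kappaB pattern GGGNNNNNCC (either strand). The Vcan promoter lies at chr2:22595906-22596205 on the minus strand, that of Olfm1 at chr3:31931086-31931385 on the plus strand and that of Fam111a at chr1:219065389-219065688 on the plus strand.
Vcan: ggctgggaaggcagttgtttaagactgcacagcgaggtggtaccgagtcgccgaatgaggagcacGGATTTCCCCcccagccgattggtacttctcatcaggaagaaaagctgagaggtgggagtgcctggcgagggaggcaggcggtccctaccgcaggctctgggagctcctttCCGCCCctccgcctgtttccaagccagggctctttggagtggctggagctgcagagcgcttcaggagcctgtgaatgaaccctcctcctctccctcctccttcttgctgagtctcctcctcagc
Olfm1: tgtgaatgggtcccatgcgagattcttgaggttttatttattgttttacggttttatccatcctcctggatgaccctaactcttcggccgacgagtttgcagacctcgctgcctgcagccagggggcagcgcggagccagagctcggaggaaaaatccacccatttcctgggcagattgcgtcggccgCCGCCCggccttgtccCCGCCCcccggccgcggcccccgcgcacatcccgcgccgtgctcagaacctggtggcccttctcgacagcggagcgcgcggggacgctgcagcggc
Fam111a: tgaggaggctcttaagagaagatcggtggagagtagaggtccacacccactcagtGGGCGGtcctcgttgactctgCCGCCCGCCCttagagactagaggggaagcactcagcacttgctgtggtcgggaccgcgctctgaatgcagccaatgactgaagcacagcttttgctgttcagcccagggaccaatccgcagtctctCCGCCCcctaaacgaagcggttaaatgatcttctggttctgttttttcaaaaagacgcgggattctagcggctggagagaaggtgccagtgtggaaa
Each of the 3 holds at least 1 GC box, found in 33.1% of 33469 rat promoter windows of this length, at base -74 in Vcan, at -62 and -46 in Olfm1 and at -195, -174, -170 and -47 in Fam111a, the pair at -174 and -170 overlapping. The NF-kappaB pattern occurs in Vcan alone, starting at -185, and in 47.3% of all windows. None of the 3 contains the AP-1 pattern TGANTCA (7.33% of windows), the TATA pattern TATAAA (14.2%) or the TCF/LEF pattern CTTTGAA (5.4%). GC content was 61% in Vcan, 64.3% in Olfm1 and 55.3% in Fam111a. A match describes letters only, and nothing here measured binding.

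No other matrix gene passed the test, though several were higher in every pair. Of 13 measured genes of matrix and urokinase biology (15 on the list) 0 were called in either fit, 4 were higher in all 6 pairs, and the median log2 difference was 0.07, against 0.00494 over all 14217 genes, of which 218 were higher in all 6 pairs. Tgfbi, a secreted matrix protein induced by TGF-beta, ran from 5.22 to 7.21 (median 6.43) with IL-1RA rat serum and from 5.17 to 6.29 (median 5.67) with autologous serum. Its ranges overlap widely; the mean pair difference was 0.70 (block SE 0.134, adjusted p = 0.614, 6 of 6 pairs higher, 0.0555 in pair 2). Fn1, fibronectin, averaged 8.48 ± 0.597 and 7.94 ± 0.433 (SD, n = 6 each), a difference of 0.54 (block SE 0.118, adjusted p = 0.981, 6 of 6 pairs). Mmp14, a membrane-bound collagenase, differed by 0.33 (adjusted p = 0.999, 6 of 6 pairs), and Dab2, an endocytic adaptor, by 0.38 (adjusted p = 0.999, 5 of 6 pairs). The remaining members lay between -0.186 and 0.0861, among them the urokinase receptor Plaur at 0.09, urokinase itself (Plau) at 0.07 and osteopontin (Spp1) at -0.02. As Vcan is itself on this list and was already known to move in these data, the list is no independent evidence.

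Monocyte genes as a list had a median near 0. Of 20 measured (22 on the list) 0 were called and 10 lay above 0, with a median difference of 0.0144. Mpeg1, a pore-forming protein of macrophages, was at 7.69 ± 0.688 and 7.25 ± 0.510 (SD, n = 6 each), a difference of 0.44 with 6 of 6 pairs higher (adjusted p = 0.999 with the block). Cd14, the lipopolysaccharide co-receptor, differed by 0.32 (5 of 6 pairs) and Fcgr1a, a high-affinity IgG receptor, by 0.29 (5 of 6 pairs), neither passing (adjusted p = 0.999). Lyz2, lysozyme, was at -0.03, Csf1r at 0.03, Cd68 at -0.08 and Itgam at 0.03. In whole PBMC cultures fewer cells of a type and less RNA per cell cannot be told apart. The mean of the 9 measured monocyte markers differed by 0.101 between the groups, and their part in the Vcan difference was not tested.

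Redox genes had the highest list median, 0.12, with 8 of 12 measured members above 0 and 0 called. Hmox1, heme oxygenase, was at 5.22 ± 0.278 and 4.89 ± 0.273 (SD, n = 6 each) and differed by 0.33 with 6 of 6 pairs higher. Akr1b8, an aldo-keto reductase, differed by 0.48 (5 of 6 pairs) and Nqo1, a quinone reductase, by 0.30 (5 of 6 pairs). These 3 did not pass (adjusted p = 0.999 with the block for each), and Nfe2l2, the transcription factor of the pathway, was at -0.08.

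**Figure D3:**
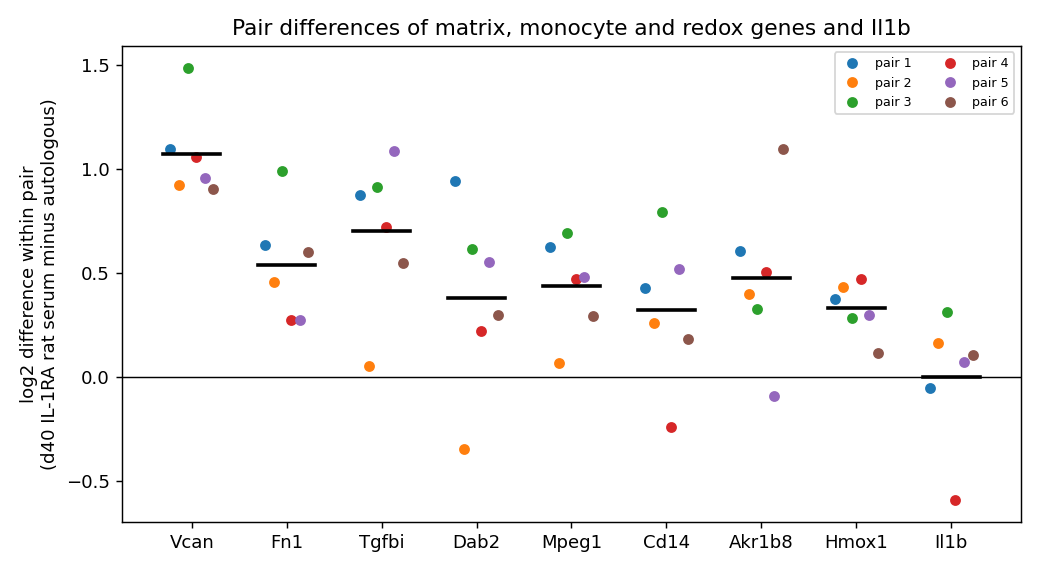
Log2 difference within each of the 6 pairs (d40 IL-1RA rat serum minus autologous serum) for 4 matrix-list genes (Vcan at 1371232_a_at, Fn1, Tgfbi, Dab2), 2 monocyte genes, 2 redox genes and Il1b; colours are pairs and bars are means. Vcan lies between 0.906 and 1.49 in every pair, Fn1, Tgfbi, Mpeg1 and Hmox1 are above 0 in all 6, and Il1b has pairs on both sides of 0.

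IL-1 genes of the responding cells were at about the same level in both sera, although they varied strongly between replicate numbers. Il1b, the main secreted form of IL-1, ran from 7.31 to 11.6 (median 8.44) with IL-1RA rat serum and from 7.14 to 11.7 (median 8.69) with autologous serum. Replicate 1 was the highest in both groups and replicate 2 the lowest, and the groups overlap fully. Within pairs the difference was between -0.592 and 0.315, with a mean of 0.00 (0.00236, 95% interval -0.263 to 0.267, adjusted p = 0.999 with the block). A mean change of Il1b above about log2 0.267 in either direction thus lies outside the paired interval. The unpaired SE was 0.752.

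The other IL-1 genes gave similarly small differences. Il1a, the membrane-associated form, differed by -0.07 (95% interval -0.270 to 0.127) and Il1rn, the rat's own receptor antagonist, by -0.09 (-0.274 to 0.104). The signalling receptor Il1r1 was lower in 6 of 6 pairs, by 0.0201 to 0.261, with a mean of -0.11 (-0.279 to 0.0565). The decoy receptor Il1r2 ran from 5.06 to 11.6 and from 5.30 to 11.5, with replicate 1 highest in both, and differed by -0.14 (-0.416 to 0.146). None passed (adjusted p = 0.999 with the block for each). Il1a, Il1rn and Il1r1 averaged only 4.6, 4.51 and 4.28 over the 12 arrays, below the array medians, where RMA compresses differences. Over the IL-1 family list 3 of 10 measured genes lay above 0, 0 were called and the median was -0.09; for IL-1 signalling and inflammasome genes the median was 0.04 over 12 genes, and for NF-kappaB targets 0.01 over 18, with Tnfaip3, an NF-kappaB feedback inhibitor, at 0.13 and higher in 6 of 6 pairs (adjusted p = 0.999).

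**Figure D4:**
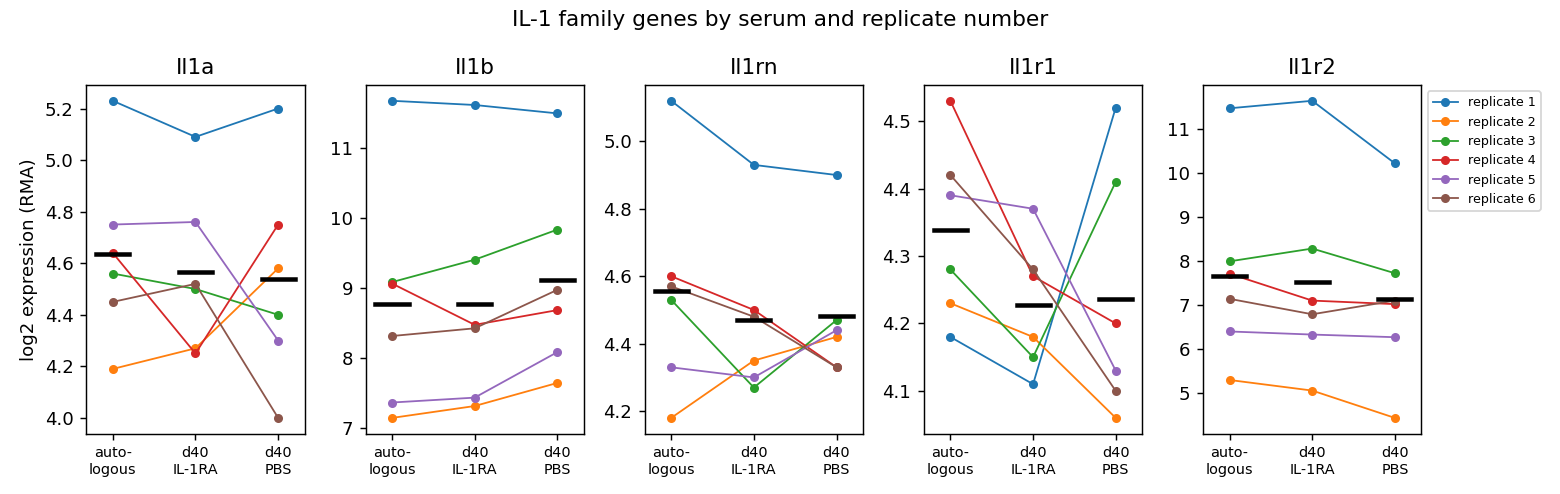
Log2 expression of Il1a, Il1b, Il1rn, Il1r1 and Il1r2 by serum, with lines joining the 3 arrays of a replicate number and black bars for means of 6. Replicate 1 lies far above the others for Il1b (11.6 and 11.7 with IL-1RA rat and autologous serum) and Il1r2, and the lines between autologous and IL-1RA rat serum are nearly flat.

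No gene list had a median as far from 0 as log2 0.2. The 38 lists held 599 measured genes, each counted once, of which 0 were called by limma unpaired or with the block at their representative probe sets; 8 (1.34%) and 21 (3.51%) had an unadjusted p under 0.05, beside 1.37% and 2.94% over all probe sets. List medians ran from -0.163 for platelet genes to 0.12 for redox genes. Platelet genes had 1 of 13 members above 0, the integrin Itgb3 at 0.05, with Gp9, a subunit of the von Willebrand factor receptor, lowest at -0.41. In single pairs, however, the platelet mean ran from -0.556 to 0.310 and was lower in only 4 of 6, while the erythroid mean ran from -0.965 to 0.727. The interferon list had a median of 0.07 (17 of 20 members above 0), with Ifit1, an interferon-induced RNA-binding protein, highest at 0.27 (4 of 6 pairs). Sterol synthesis genes had a median of -0.08, with 10 of 15 at or below 0. Medians were 0.01 for T-cell genes, -0.01 for B-cell genes, -0.00351 for MHC class II genes, 0.05 for neutrophil genes and 0.03 for cytokines and CXC chemokines. Among single list members, the gelatinase Mmp9 was lower in 6 of 6 pairs, by 0.44 on average (6.07 ± 0.773 against 6.51 ± 1.14, SD, n = 6 each), and Zfp36, which destabilises cytokine mRNAs, was lower in 5 of 6 at -0.34; neither passed (adjusted p = 0.999 with the block).

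**Figure D5:**
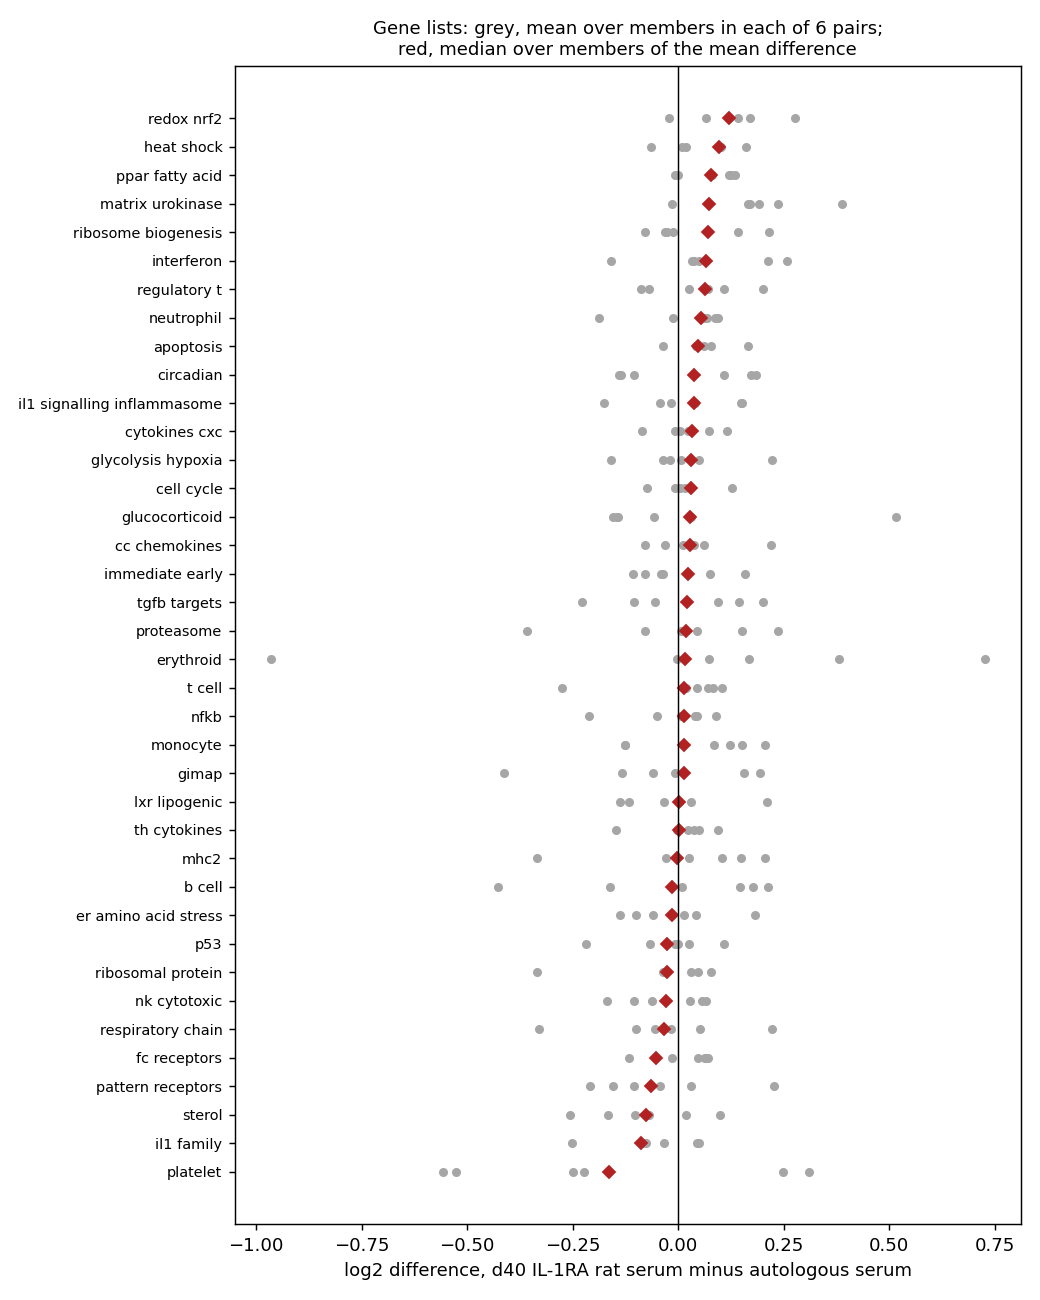
Log2 difference between d40 IL-1RA rat serum and autologous serum for 38 gene lists; grey points are the mean over a list's measured members in each of 6 pairs, red diamonds the median over members of the mean difference. Medians lie between -0.163 (platelet) and 0.12 (redox), and the erythroid and platelet pair values spread widest.

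The genes with the next smallest p did not pass in either direction. Nrep differed by 0.39, Bglap, osteocalcin, by 0.34 and Rnf182, a ubiquitin ligase, by 0.51, each higher in 6 of 6 pairs (adjusted p from 0.88 to 0.923 with the block). Over both groups Nrep ran from only 2.81 to 3.63 and Bglap from 3.39 to 4.13, below the array medians, where RMA compresses differences. Lower in 6 of 6 pairs were Muc4, a membrane mucin, at -0.37, Grin3b, an NMDA receptor subunit, at -0.33, Slc15a2, a peptide transporter, at -0.27 and Sez6 at -0.24. Mcrs1 at -0.48, the respiratory chain subunit Ndufb1 at -0.42 and Phactr1, a regulator of actin and phosphatase 1, at -0.43 were lower in 5 of 6. None of these 7 passed (adjusted p = 0.999 with the block). In all, 443 probe sets were higher in each of the 6 pairs (1.43%) and 276 lower (0.889%). Pairs 5 and 6 carried the most single-pair differences of log2 1 or more, with 583 higher and 411 lower in pair 5 and 13 higher and 372 lower in pair 6. In those pairs the actin 3′ to 5′ difference was 4.18 against 3.20 and 3.39 against 4.31 (IL-1RA against autologous), and its part in these differences was not tested.

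Serum of PBS-treated rats of the same strain and age gives the direct test of where the IL-1RA group differed from vehicle. This comparison shares the IL-1RA arrays with the previous one, so the values are set side by side only. Same-number arrays correlated at 0.401 to 0.739. The d40 groups did not overlap at 23 probe sets in the higher direction (0.0741%) and 15 in the lower (0.0483%); 755 were higher in all 6 pairs (2.43%) and 936 lower (3.02%). Limma called 0 probe sets unpaired (0%, 943 at an unadjusted p under 0.05) and 3 with the block, all higher with IL-1RA rat serum (0.00966%, 3191 at an unadjusted p under 0.05). The actin 3′ to 5′ difference was higher in the IL-1RA group, as given above, and with it as a covariate beside the block 119 probe sets were called, 107 higher and 12 lower, with 0 of the 3 reported calls among them. In the block fit without the covariate, the count was 186 without pair 5 (holding all 3) and 0 without pairs 2, 3, 4 or 6.

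Olfm1 gave the smallest adjusted p of the comparison with PBS rat serum in the block fit. With PBS rat serum it ran from 5.83 to 7.06 (median 6.10), so that a single PBS array, replicate 1, reached the lowest IL-1RA array. The difference of log2 1.36 was present in 6 of 6 pairs (adjusted p = 0.0121 with the block; called in 2 of 6 fits without a pair, adjusted p up to 0.0798), while PBS rat serum lay 0.36 below autologous serum (adjusted p = 0.368). Rasd1, a dexamethasone-inducible Ras-like protein, was higher than with PBS by 0.74 in 6 of 6 pairs (adjusted p = 0.0249; 1 of 6 fits without a pair, up to 0.148). It ran from 7.71 to 8.57 with IL-1RA rat serum, from 7.09 to 7.65 with PBS rat serum and from 6.37 to 8.75 with autologous serum. The d40 groups do not overlap, but the autologous range covers both, and against autologous serum the IL-1RA group differed by 0.07. The third, the unnamed probe set 1397286_at, was higher by 0.98 (adjusted p = 0.0315) and at -0.12 against autologous serum. With the actin covariate beside the block these calls were lost, Olfm1 at 0.87 (adjusted p = 0.266), Rasd1 at 0.80 (0.118) and 1397286_at at 0.74 (0.314).

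Vcan and Fam111a lay between the groups in PBS rat serum. At 1371232_a_at Vcan ran from 5.02 to 6.05 with PBS, 0.43 above autologous (adjusted p = 0.352) and 0.65 below IL-1RA (6 of 6 pairs, adjusted p = 0.0943 with the block). Fam111a ran from 3.45 to 4.04, 0.29 above autologous (adjusted p = 0.352) and 0.73 (0.725) below IL-1RA in 6 of 6 pairs (adjusted p = 0.0943). Neither difference from PBS passed this test, but both were called beside the block with array weights (Vcan adjusted p = 0.0226, Fam111a 0.0218) and with the 3 groups in 1 fit (0.05 for each after rounding). With the actin covariate Fam111a was at 1.43 (adjusted p = 0.0231). PBS rat serum against autologous serum called 0 probe sets in both fits (1615 at an unadjusted p under 0.05 unpaired and 3442 with the block).

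Several immune genes were nearer to autologous than to PBS levels without passing. Il1b was lower than with PBS by 0.34 (lower in 5 of 6 pairs, adjusted p = 0.274) and Il1r2 higher by 0.41 (5 of 6 pairs, adjusted p = 0.45). MHC class II genes had a median of -0.25 against PBS, with the list mean lower in 6 of 6 pairs and 0 members called; RT1-DMb, which loads peptide on class II, was at -0.50 (adjusted p = 0.133) and Ciita, the class II transactivator, at -0.58 (adjusted p = 0.136), each lower in 6 of 6 pairs. B-cell and T-cell lists had medians of -0.20 and -0.14 with 0 of 6 pair means above 0, beside a median over all probe sets of -0.01. Lower medians were not limited to immune lists, with -0.13 for cell-cycle, -0.12 for sterol and -0.11 for proteasome genes. Other lists lay above PBS, up to a median of 0.13 for matrix and urokinase genes. The part of the actin difference between these groups, given above, was not tested for the lists. Cxcl2, a neutrophil chemokine, was at 0.61 (adjusted p = 0.133) and Maml2, a Notch co-activator, at 0.64 (adjusted p = 0.0943), both higher in 6 of 6 pairs.

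Against the 3 allogeneic BN sera no probe set was called by limma (0%, 3615 at an unadjusted p under 0.05, smallest adjusted p 0.156). The actin 3′ to 5′ difference was lower on average in the allogeneic arrays, as given above. With it as a covariate limma again called 0, with 839 at an unadjusted p under 0.05 and a smallest adjusted p of 0.982. Vcan at 1371232_a_at differed by log2 2.00 and Olfm1 by 1.21 there, from 4.17 ± 0.219 and 6.44 ± 0.164 (SD, n = 3) in allogeneic serum, and Id3, an inhibitor of helix-loop-helix factors, by 1.47. Without allogeneic replicate 1 the count was 475 and without IL-1RA replicate 1 it was 3. Same-number correlations were 0.515, 0.0405 and 0.00231, so the numbers did not pair these samples.

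Values of sera from 60-day-old (d60) rats, namely DRlyp/lyp serum with and without IL-1RA added in culture and serum of DR+/+ rats (the related BB line without lymphopenia), read against autologous replicates 7 to 10 of their own array cluster, are set beside the d40 values. In a fit of 28 arrays Vcan at 1371232_a_at was higher by log2 1.82 with d60 DRlyp/lyp serum (adjusted p = 0.0368), 2.15 with d60 DRlyp/lyp serum plus IL-1RA (adjusted p = 0.0056) and 1.77 with d60 DR+/+ serum (adjusted p = 0.00898). These fits called 10, 19 and 426 probe sets (0.0322%, 0.0612% and 1.37%). Olfm1 stood at 0.54, 0.55 and 0.53 (0.525) there and Fam111a at 0.25, -0.41 and 0.04, none called (adjusted p from 0.282 to 0.964). The test of the difference from the d40 value called 0 probe sets for DRlyp/lyp (1065 at an unadjusted p under 0.05) and 0 for DR+/+ (2972), with Vcan at 0.75 (SE 0.439, adjusted p = 1) and 0.69 (SE 0.439, adjusted p = 0.634). At the Vcan probe set 1388142_at the d60 differences were 3.11, 3.16 and 3.22, and the difference from d40 was 2.19 for DRlyp/lyp (SE 0.615, adjusted p = 1) and 2.30 for DR+/+ (SE 0.615, adjusted p = 0.231). Donor age, treatment and array cluster, and for DR+/+ also lyp genotype, cannot be told apart in these differences.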

How the data were processed

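Affymetrix rat expression arrays measured 1 culture each. The deposited unit is log2 expression of a probe set. RMA and Partek 6.2 are named in the submitters' processing notes; RMA's version, what Partek did and when arrays were scanned are not given in the sources used here. Of 31099 probe sets 57 controls were left out. Probe sets with 1 symbol in the array annotation numbered 20826, those with several 436 and those with none 9780. A gene was represented by its probe set with the highest mean over 53 arrays (14217 genes). Other per-sample columns left unused: 0.

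Differences were fitted with limma 3.58.1 in R 4.3.3 (lmFit and eBayes with a variance trend, two-sided), unpaired on the arrays compared, with Benjamini-Hochberg adjustment over 31042 probe sets and calls at an adjusted p under 0.05. All adjusted p-values are limma's, and 95% intervals are those of the block fit. The scripts were tested on simulated data. Pairing by replicate number was checked from the correlation of same-number deviations from group means over probe sets, which had to exceed 0.1 in each pair. The lowest was 0.129 against autologous and 0.401 against PBS serum, so blocked values are given. The labels do not state what the numbers stand for.

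The members and 38 gene lists were chosen with earlier results of these data known. Named genes were those called, the 5 with the smallest p in each direction where fewer were called, up to 2 members a list, and 5 IL-1 genes; Fn1, Dab2, Cd14 and other list members were added after their values were seen. Alternatives were a second quantile normalisation, median centring, brighter probe sets only, no variance trend, array weights, actin 3′ to 5′ difference as a covariate, stricter thresholds, more arrays in the fit, and leaving out each array or pair; those combining the block with another choice were added after seeing the data. Figures used Python 3.11.15 and matplotlib 3.10.9.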

Additional observations from a re-analysis of the deposited data

Results flagged for a closer look

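Between the d40 groups 3 differences passed the test of the difference itself, with the replicate block: Olfm1 at log2 1.36, Rasd1 at 0.741 and the unnamed probe set 1397286_at at 0.977, all higher with IL-1RA than with PBS rat serum. None of the 3 was called with the actin 3′ to 5′ difference (3.90 with IL-1RA and 3.52 with PBS rat serum) as a covariate beside the block, where Olfm1 was at 0.87 (limma, adjusted p = 0.266).

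Of 116 sets of 6 values 7 had a value far from the other 5, where chance at 1 in 20 gives 5.8. Il1rn was high in replicate 1 with IL-1RA rat serum (4.93, others 4.27 to 4.50) and with PBS rat serum (4.90, others 4.33 to 4.47). Rasd1 was low in autologous replicate 1 (6.37, others 7.91 to 8.75). Mean pair differences stood apart for T-cell genes in pair 5 (-0.275, others 0.0183 to 0.104) and neutrophil genes in pair 4 (-0.188, others -0.0108 to 0.0947). The same held for glucocorticoid targets in pair 1 (0.516, others -0.154 to 0.0307) and ribosomal protein genes in pair 5 (-0.334, others -0.0349 to 0.0777). Rasd1 is 1 of 14 measured members of the glucocorticoid list, at 1.77 in pair 1, and its part in that mean was not tested.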

How the results depend on the processing

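Unpaired, the count of calls against autologous serum was 0, and it was 4 with the replicate block. It was 1 with array weights (Fam111a), and 0 to 1 when 1 array was left out (Fam111a, without IL-1RA replicate 5). With all 53 arrays in the fit it was 1 (Olfm1), where autologous replicates 7 to 10 of the other array cluster joined the reference. With replicate number as a random block it was 0. Against PBS rat serum it was 0 unpaired, 3 with the replicate block and 1 with it as random (Olfm1). Against allogeneic serum, 0 became 551 with array weights and 0 to 475 when 1 array was left out, and stayed 0 with the actin covariate. With the block, the 4 calls against autologous serum became 2 among brighter probe sets and 2 without a variance trend. They became 1 at an adjusted p under 0.01, 2 at a log2 difference of at least 1 and 1 to 4 without 1 pair. With the 3 groups in 1 fit the count was 3 (without Vcan 1388142_at), and with the actin covariate it was 5 (all 4 and Vcan 1388054_a_at). The Vcan probe set 1371232_a_at was called in 9 of 9 block alternatives and in 6 of 6 fits without a pair. The other 3 calls depended more on the fit. Vcan 1388142_at was called in 6 of 9 block alternatives (limma, adjusted p up to 0.255), Olfm1 in 5 of 9 (up to 0.0985) and Fam111a in 6 of 8 (up to 0.136). Against PBS serum the count of 3 was 18 with array weights (holding all 3), 119 with the actin covariate (holding 0 of the 3), 0 at an adjusted p under 0.01, 1 at a log2 difference of at least 1 and 0 to 186 without 1 pair. The causes were not tested. No called difference changed sign. Against autologous serum the uncalled differences of Rasd1 (-0.268 to 0.215), 1397286_at (-0.437 to 0.206) and Il1b (-0.0603 to 0.121) changed sign without 1 pair, and those of Il1a, Il1rn and Il1r2 did so under at least 1 unpaired alternative. The 38 list medians moved by less than the spread between pairs with all probe sets averaged, with median centring and with the actin covariate. A replicate block leaves these medians the same by design, so that setting was no check of them. The replicate block changed no other call. The number of arrays limits precision: the median SE was 0.127 unpaired and 0.106 with the block, and low probe sets have compressed differences.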
